A study of Mus musculus with 12 samples.

Results

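The inhibitors of apoptosis and the BCL2 family were followed in whole blood of C57Bl/10 mice through 10 genes, chosen by name: Birc2, Birc3, Xiap, Bcl2, Bcl2l1, Mcl1, Bax, Bak1, Bcl2l11 and Bid. The annotation of the array assigned 35 of its 45101 probe sets to 9 of these genes. It named no other gene for any of the 35, and whether these also match transcripts of other genes was not checked. A probe set is a group of short oligonucleotides that together measure a transcript, and 34958 of the probe sets of the array name a single gene. Xiap had 7 probe sets, Mcl1 6, Bcl2 and Bcl2l11 5 each, Bcl2l1 4, Bid 3, Birc3 and Bak1 2 each and Birc2 1. Bax was not analysed here, since no probe set was assigned to it.

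Each of the 12 Affymetrix Mouse 430 2.0 arrays held blood RNA of 1 mouse, with 4 mice per group. The age given for all groups is 3 months, which the study states for the mice as obtained, before exposures of unlike length. Mice in NX (normoxia) breathed 21% oxygen, mice in CH (chronic hypoxia) spent 14 days in normobaric hypoxia that was gradually lowered to 8% oxygen, which they breathed at harvest, and mice in REC (recovery) had 14 days of CH and then 14 days at 21% oxygen. All mice were wild type. One label field calls the CH mice normoxic, whereas their titles, the treatment protocol and the study call them hypoxic, and the titles were followed. The blood was not sorted, so each value is a sum over red cell precursors, platelets and all leukocytes, and fewer cells of a type and less RNA per cell cannot be told apart.

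BCL2 proteins decide whether the outer mitochondrial membrane is opened. BCL2, BCL-XL (encoded by Bcl2l1) and MCL1 keep it closed, BAX and BAK (encoded by Bak1) form the pore, and BH3-only proteins such as BIM (encoded by Bcl2l11) and BID tip the balance towards the pore. Once cytochrome c has left the mitochondria, caspases are activated, and XIAP binds and inhibits them directly, while cIAP1 and cIAP2 (encoded by Birc2 and Birc3) are ubiquitin ligases that act mainly at tumour necrosis factor receptors and in NF-kappaB signalling. In blood the family is known for its division of labour between lineages: BCL-XL keeps late erythroblasts and platelets alive, MCL1 is needed by neutrophils and lymphocytes, and BCL2 by resting lymphocytes.

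Promoters are shown for the member gene that was higher in CH and for Birc2 and Birc3, 2 neighbouring genes on chromosome 9 that were both lower in CH. All entries of these 3 genes in the RefSeq promoter table (build GRCm38.p6) are given, each as the 250 bases before a transcription start, read 5′ to 3′ in the direction of the gene. Capitals mark a match on either strand to the GATA motif (AGATAA, where the first letter may also be T and the last may also be G), to the core of the hypoxia response element (ACGTG, where the first letter may also be G) or to the kappaB motif. A core on the opposite strand appears as its reverse complement, for example CACGC.
Bcl2l1 promoter 1, chr2:152828490-152828739, minus strand: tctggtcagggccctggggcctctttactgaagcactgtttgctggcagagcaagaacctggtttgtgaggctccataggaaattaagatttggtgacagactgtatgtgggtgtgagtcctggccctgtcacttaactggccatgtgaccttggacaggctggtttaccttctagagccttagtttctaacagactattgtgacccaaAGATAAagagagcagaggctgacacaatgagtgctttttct
Bcl2l1 promoter 2, chr2:152830718-152830967, minus strand: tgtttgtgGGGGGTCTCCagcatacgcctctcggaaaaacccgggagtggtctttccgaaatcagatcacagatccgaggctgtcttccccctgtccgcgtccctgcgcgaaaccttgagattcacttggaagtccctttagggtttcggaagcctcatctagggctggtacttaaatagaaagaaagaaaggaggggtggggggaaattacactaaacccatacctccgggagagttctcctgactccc
Bcl2l1 promoter 3, chr2:152831729-152831978, minus strand: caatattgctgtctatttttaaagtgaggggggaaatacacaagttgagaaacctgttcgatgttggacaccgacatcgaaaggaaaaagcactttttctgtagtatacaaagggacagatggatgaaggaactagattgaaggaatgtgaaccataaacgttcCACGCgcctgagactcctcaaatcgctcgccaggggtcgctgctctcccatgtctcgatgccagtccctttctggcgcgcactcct
Birc2 promoter 1, chr9:7836807-7837056, minus strand: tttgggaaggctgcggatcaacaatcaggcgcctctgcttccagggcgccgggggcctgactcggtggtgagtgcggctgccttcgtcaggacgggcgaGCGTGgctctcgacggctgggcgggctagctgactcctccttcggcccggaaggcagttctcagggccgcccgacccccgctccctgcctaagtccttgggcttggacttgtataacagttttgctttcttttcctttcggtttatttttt
Birc2 promoter 2, chr9:7837058-7837307, minus strand: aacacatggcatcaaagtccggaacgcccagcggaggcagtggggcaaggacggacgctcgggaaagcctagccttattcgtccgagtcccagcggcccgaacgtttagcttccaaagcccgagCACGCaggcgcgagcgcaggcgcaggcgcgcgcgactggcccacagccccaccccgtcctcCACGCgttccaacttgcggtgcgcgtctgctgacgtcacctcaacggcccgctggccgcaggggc
Birc3 promoter 1, chr9:7873171-7873420, minus strand: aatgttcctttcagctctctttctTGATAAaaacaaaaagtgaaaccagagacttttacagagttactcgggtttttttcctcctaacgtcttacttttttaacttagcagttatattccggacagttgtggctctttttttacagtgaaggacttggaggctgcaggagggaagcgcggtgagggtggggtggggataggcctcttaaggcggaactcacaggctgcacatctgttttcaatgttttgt
GATA factors direct red cell genes, and a GATA match (AGATAA) lay at -41 to -36 before the first Bcl2l1 start, with another (TGATAA) at -226 to -221 before Birc3. The hypoxia element core occurred once before the third Bcl2l1 start, at -86 to -82, and before both Birc2 starts, with 2 matches in the second window. The kappaB match lay before the second Bcl2l1 start. Members whose promoters are not shown had matches too: GATA before Xiap and Bid, and the hypoxia element core before Xiap, Bax and Bcl2l11. None of the 16 entries of the member genes held the STAT motif TTCNNNGAA. Of 32536 distinct promoters of the same length, 26.5% held a GATA match, 38.8% a hypoxia element core, 7.28% a kappaB match and 7.04% a STAT match. A match is a string of letters and was not tested for binding.

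Signals are the deposited intensities on a linear scale. Changes are differences of group means of log2(signal + 16), with the standard error (SE) of a limma fit over all 12 arrays. A call needed a change of at least 2-fold and a p under 0.05 after Benjamini-Hochberg adjustment across the 45101 probe sets. Folds are on the log2(signal + 16) scale, which understates the change of dim probe sets. The brightest probe set of a gene, by its mean log2 signal over the 12 arrays, stands for the gene unless another is named. CH and REC were each compared with the same 4 NX arrays, so the first pair of comparisons is not independent.

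Of the 35 member probe sets, 5 had higher and 18 had lower signals in CH against NX by this rule, or 65.7%, where 22.0% of all probe sets were called, 8.04% higher and 13.9% lower. The arrays of CH and NX did not overlap for 21 of the 35, or 60.0%, against 26.1% of all probe sets. The median log2 change was -1.05 for the members and 0.11 for all probe sets. The shares of the members and of all are unlike, since 26 of the 35 were at or above the median of all probe sets in mean log2 signal. Probe sets of the same gene are also not independent of each other. In REC against NX, 4 member probe sets (11.4%) were lower and 0 higher, with 4.36% of all probe sets called, 2.74% lower and 1.62% higher. At an unadjusted limma p under 0.05, 2 were higher and 12 lower in REC, and the analysis of variance without moderation called 0 higher and 4 lower. The groups did not overlap in 12 (34.3%), against 20.3% of all probe sets, and the median change was -0.27 for the members and -0.10 for all. In CH against REC, 5 member probe sets were higher and 13 lower (51.4%), with 27.8% of all probe sets called, 12.6% higher and 15.2% lower, and 19 (54.3%) did not overlap against 32.4% of all, with a median change of -0.67 for the members and 0.25 for all probe sets. Across the 3 groups limma's F test called 22 of the 35, and 25.0% of all probe sets. By the brightest probe set of each gene, Bcl2l1 was higher in CH than in NX, 7 genes were lower (Birc2, Birc3, Xiap, Bcl2, Mcl1, Bcl2l11 and Bid) and Bak1 was not called. Other probe sets limit this for Xiap, where 1 of 7 was called higher and 4 were not called. They limit it too for Bcl2l11, Bid and Bcl2, where 3 of 5, 2 of 3 and 1 of 5 were not called. Scaling to the hybridization controls, transcripts added to the hybridization mix in fixed amounts, turned these splits further downwards in CH, to 3 higher and 25 lower against NX and 3 higher and 27 lower against REC, and to 2 higher and 3 lower in REC against NX. The median of all probe sets moved the same way, to -0.71, -1.13 and 0.40, and the share of all called on that scale was not counted.

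**Figure D1:**
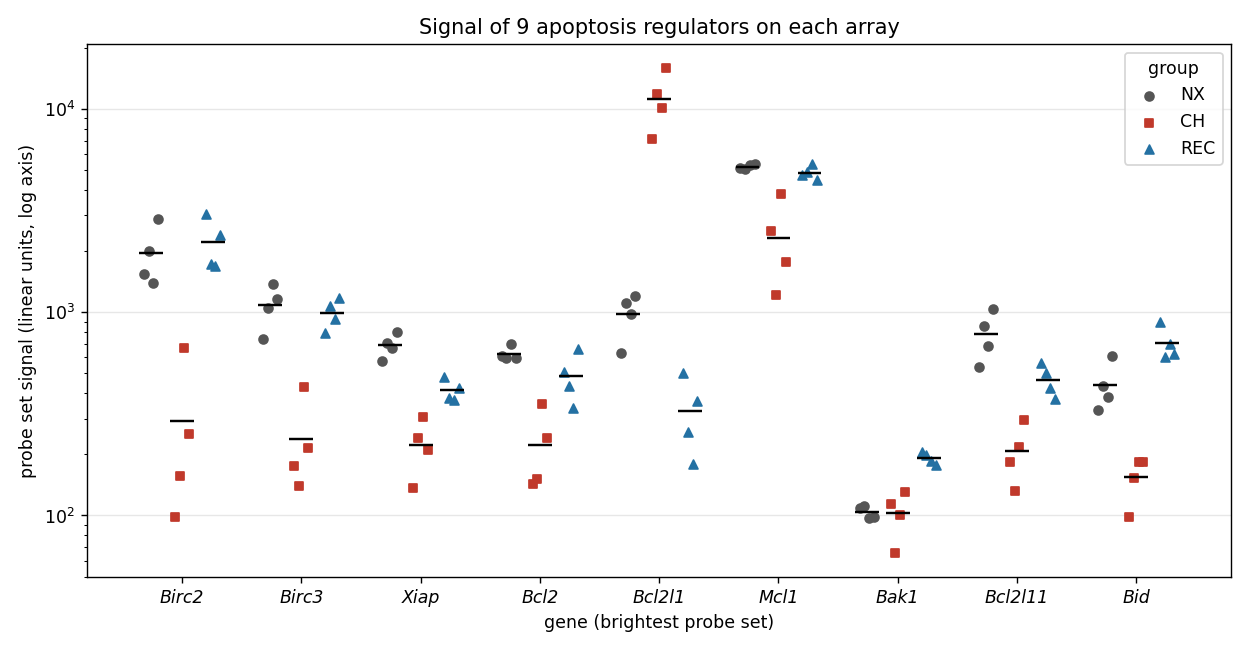
Deposited signal (log axis) of the brightest probe set of each of the 9 measured genes on the 12 arrays, with circles for NX, squares for CH, triangles for REC and a black line at each group mean. The 4 CH arrays of Bcl2l1 sit above all others, from 7105 to 15857, while those of Birc2, Birc3, Xiap, Bcl2, Mcl1, Bcl2l11 and Bid sit below all NX arrays.

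Birc2 encodes cIAP1. Its single probe set had signals of 1548, 2009.9, 1389.7 and 2893 in the 4 NX mice. The CH mice had 98.4, 157, 665 and 251. The REC mice had 3061, 1729, 1689 and 2413. All CH arrays lay below all NX and REC arrays, while NX and REC overlapped. NX averaged 1960.3 ± 675, CH 293 ± 256 and REC 2223 ± 649.7 (mean ± SD, n = 4 mice each). Birc2 was thus 7.75-fold lower in CH than in NX (log2 change -2.95, SE 0.45, adjusted p = 2.66e-04). Against REC it was 8.87-fold lower in CH (adjusted p = 8.88e-05), and REC against NX gave a log2 change of 0.19 (SE 0.45, adjusted p = 0.890).

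Birc3 encodes cIAP2, and its 2 probe sets went different ways in recovery. With 1421392_a_at the signals were 739, 1047, 1377 and 1158 in NX, 174, 140.0, 427 and 214 in CH and 789.7, 1069, 931 and 1180.4 in REC. With 1425223_at they were 459, 404, 464 and 464 in NX, 79.4, 78.3, 173 and 52.9 in CH and 86.0, 108, 163 and 88.1 in REC. In CH both lay below all NX arrays, but in REC the first was back among the NX arrays and the second stayed among the CH arrays. The fall in CH was 4.56-fold for 1421392_a_at (log2 change -2.19, SE 0.32, adjusted p = 1.87e-04). In REC against NX the log2 change was -0.10 for 1421392_a_at (SE 0.32, adjusted p = 0.925) and -1.90 for 1425223_at (SE 0.30, adjusted p = 0.00305). Across the 12 arrays the pair had a Pearson r of 0.61, and the _a_at suffix of the first marks probes that match several transcripts of the gene. With scaling to the hybridization controls 1425223_at was called lower in CH against REC (log2 change -2.24). On the deposited scale this change was -0.25 and not called. Why the pair differs in REC was not tested.

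Xiap encodes the X-linked inhibitor that binds caspases. Its brightest probe set, 1437533_at, had signals of 576, 704, 666 and 801 in NX, 137, 239, 305 and 211 in CH and 479.8, 380.3, 369 and 425 in REC. The REC arrays lay between the other groups without overlapping either. The probe set was 3.02-fold lower in CH than in NX (log2 change -1.60, SE 0.25, adjusted p = 3.52e-04). REC against NX gave -0.71 (adjusted p = 0.136) and CH against REC -0.89 (adjusted p = 0.0133), which is under 2-fold but was called with median centring (-1.20), with scaling to the hybridization controls (-3.14) and without CH replicate 3 (-1.05). A further probe set, 1453385_at, ran the opposite way, with 252, 207, 204 and 158 in NX, 842, 739, 471 and 857 in CH and 133, 105, 167 and 68.2 in REC. Its CH arrays were above all others, at 3.31-fold NX (log2 change 1.73, SE 0.29, adjusted p = 5.06e-04) and 5.62-fold REC (adjusted p = 1.39e-05). Its r with 1437533_at over the 12 arrays was -0.71, so the annotation gives Xiap 2 probe sets of opposite direction, and no single direction can be given for the gene. With scaling to the hybridization controls the change of 1453385_at was 0.18 against NX and 0.21 against REC on the log2 scale, and neither was called. The probe set 1456088_at was lower in CH (-1.05, adjusted p = 0.0129), a call lost with quantile normalization (-0.88) and without NX replicate 4 (-0.96) or CH replicate 2 (-0.85). The other 4 were not called in any comparison by the limma fit described above, 3 of them with group means of at most 37.5 ± 18.7. Array weights called 1421394_a_at higher in CH against REC (1.11). Without CH replicate 3 it was called higher too (1.33), as was 1450231_a_at (1.16). Scaling to the hybridization controls called 1426636_a_at and 1450232_at lower in CH against NX (-1.45 and -1.02) and against REC (-1.38 and -1.24).

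Among the 10 probe sets of these 3 inhibitors, CH against NX gave 1 higher and 5 lower, REC against NX 0 higher and 1 lower (0 higher and 6 lower at an unadjusted limma p under 0.05, 0 and 1 by the unmoderated analysis of variance), and CH against REC 1 higher and 2 lower. The shares called were 60.0%, 10.0% and 30.0%, where those of all probe sets were 22.0%, 4.36% and 27.8%.

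**Figure D2:**
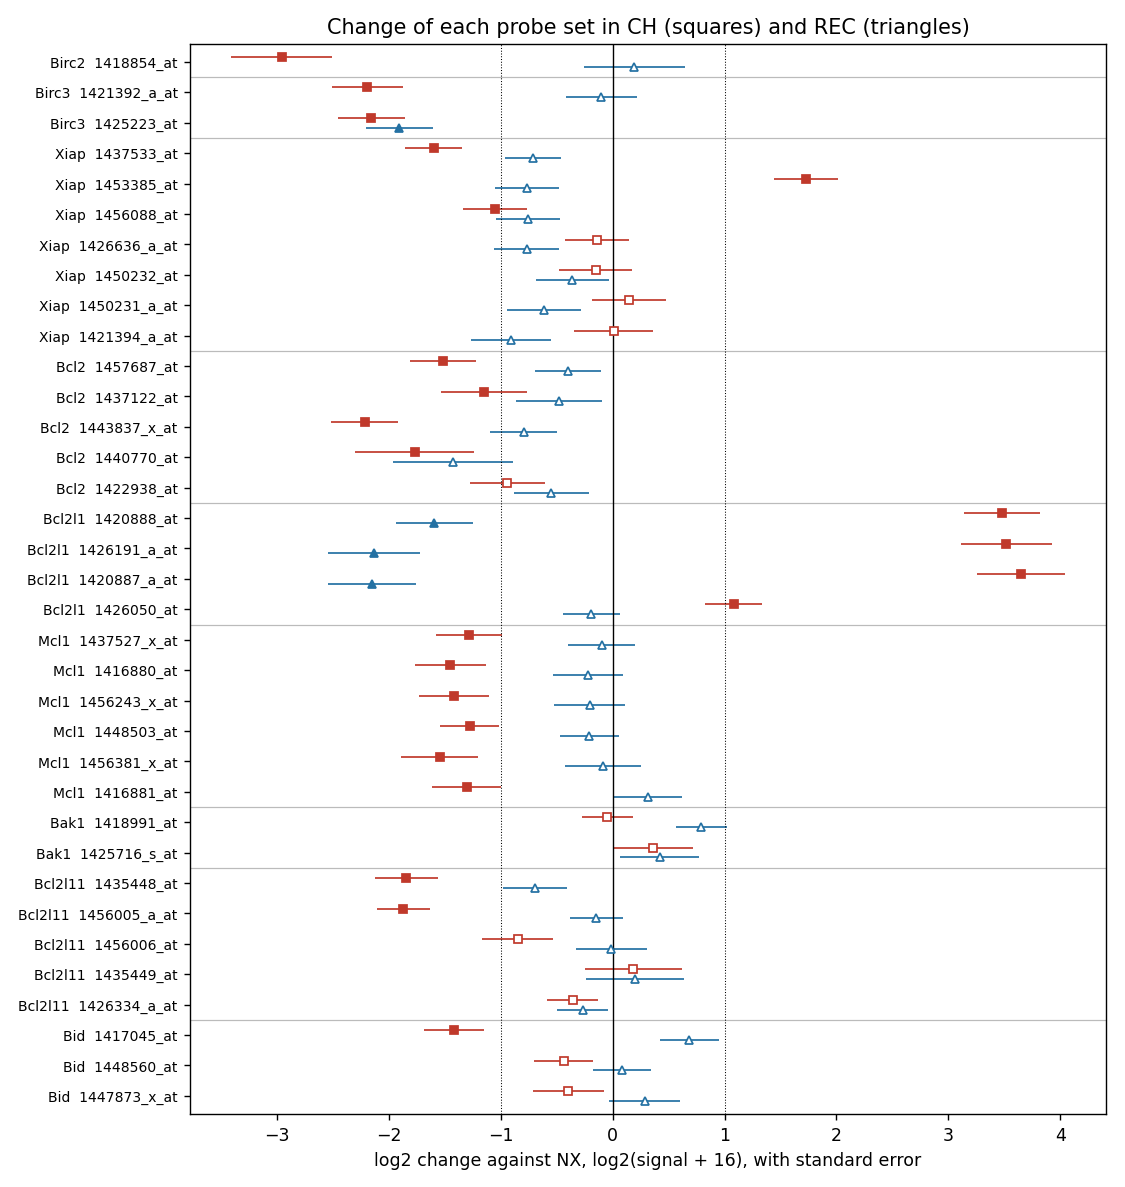
Log2 change with its SE of all 35 probe sets against NX, in CH and in REC, grouped by gene, with filled symbols for called probe sets and dotted lines at a 2-fold change. The 6 Mcl1 probe sets lie together in CH, between -1.28 and -1.54, 3 of the 4 of Bcl2l1 lie between 3.48 and 3.64, and the Xiap probe sets fall on both sides of 0.

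Bcl2l1 encodes BCL-XL and was the one member whose brightest probe set was higher in CH. Signals of 1420888_at were 627, 1108, 982 and 1197 in NX. In CH they were 7105, 11839.5, 10098 and 15857. In REC they were 503, 258, 179 and 367. The 3 groups did not overlap, with CH highest and REC lowest. NX averaged 978 ± 250.2, CH 11225 ± 3655 and REC 327 ± 140.4 (mean ± SD, n = 4 mice each). Bcl2l1 was 11.2-fold higher in CH than in NX (log2 change 3.48, SE 0.34, adjusted p = 8.54e-06) and 33.6-fold higher in CH than in REC (adjusted p = 8.20e-08). In REC it was 3.01-fold lower than in NX (log2 change -1.59, SE 0.34, adjusted p = 0.0158). This fall below NX lost its call with median centring (log2 change -1.43, adjusted p = 0.0512), with a pseudocount of 1 (-1.64, 0.0574), with scaling to the hybridization controls (-0.82, 0.107), and without NX replicate 2 (-1.52), NX replicate 4 (-1.48), REC replicate 2 (-1.51) or REC replicate 3 (-1.35).

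The other Bcl2l1 probe sets followed the first, with r over the 12 arrays of 0.995 for 1426191_a_at, 0.997 for 1420887_a_at and 0.874 for 1426050_at. In CH against NX the log2 change was 3.52 for 1426191_a_at and 3.64 for 1420887_a_at, and in REC against NX -2.13 (adjusted p = 0.00894) and -2.15 (adjusted p = 0.00686). The signals of 1420887_a_at, 5593, 11007, 10296 and 13820.3 in CH and 327, 135, 79.3 and 175 in REC, differed 55.3-fold, the largest of the 105 changes of the members. The probe set 1426050_at was dim, with 36.7, 13.8, 31.2 and 34.6 in CH and group means of 5.34 ± 5.98 in NX and 2.28 ± 1.43 in REC. It was still called higher in CH than in NX (1.08, adjusted p = 0.00556), although 1 NX array reached the range of CH. That call was lost with quantile normalization (0.92), median centring (0.92), scaling to the hybridization controls (0.28), array weights (0.86) and without CH replicate 1 (0.99).

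Bcl2, the founding anti-apoptotic member, was lower in CH. Its brightest probe set, 1457687_at, had signals of 612, 596, 701 and 595 in NX, 143, 151, 354 and 242 in CH and 507, 434, 339 and 660.1 in REC. CH lay below NX on every array, and CH replicate 3 lay above the lowest REC array. The fall was 2.86-fold (log2 change -1.52, SE 0.30, adjusted p = 0.00152). In CH against REC the log2 change was -1.12 (adjusted p = 0.00868), a call lost with quantile normalization and without CH replicate 1, CH replicate 2 or REC replicate 4, and in REC against NX it was -0.39 (adjusted p = 0.555). The probe set 1443837_x_at had signals of 375, 263, 346 and 398 in NX, 49.9, 41.8, 136 and 45.1 in CH and 179, 170.2, 213 and 201 in REC, 3 ranges without overlap, and was 4.64-fold lower in CH than in NX (adjusted p = 1.07e-04). Its REC change was -0.79 (adjusted p = 0.163). In 1440770_at the CH signals were 33.6, 46.5, 314 and 87.8 and the REC signals 104, 59.9, 80.9 and 293, against 320.1, 233, 369 and 424 in NX, so that 1 CH and 1 REC array reached the NX range. It was called in CH (-1.77, adjusted p = 0.0223) and not in REC (-1.42, adjusted p = 0.160). The probe set 1437122_at was called lower in CH (-1.15, adjusted p = 0.0370), and 1422938_at changed by -0.94, under 2-fold (adjusted p = 0.0498). With median centring (-1.10) and without CH replicate 3 (-1.25) 1422938_at was called too. The call of 1437122_at in CH was lost with quantile normalization (-0.86), a pseudocount of 1, the unmoderated analysis of variance and the replicate block, and without NX replicate 2, 3 or 4, CH replicate 1, 2 or 4, or REC replicate 2, with log2 changes of -1.01 to -1.21 in those left-out fits. That of 1440770_at was lost with quantile normalization (-1.64), the unmoderated analysis of variance, and without NX replicate 3 or 4 or CH replicate 1 or 2 (-1.42 to -1.71), while its REC change was called with array weights (-1.63) and with only the 8 arrays compared (-1.42).

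Mcl1 encodes a short-lived anti-apoptotic protein on which neutrophils depend, and its 6 probe sets behaved alike, with r between 0.903 and 0.994 to the brightest. Signals of 1437527_x_at were 5125, 5045, 5287 and 5375 in NX, 2509.8, 1218, 3824 and 1776 in CH and 4748, 4893, 5369 and 4481 in REC. The NX arrays were within 5045 to 5375, while the CH arrays spread more than 3-fold, with replicate 2 lowest and replicate 3 highest, and all lay below NX and REC. The fall was 2.43-fold (log2 change -1.28, SE 0.30, adjusted p = 0.00480), and 2.27-fold against REC (adjusted p = 0.00645). The other 5 fell by between 1.28 and 1.54 on the log2 scale in CH against NX, and REC against NX ranged from -0.22 to 0.31 over the 6, with 0 called by limma, 0 at an unadjusted p under 0.05 and 0 by the unmoderated analysis of variance. The CH call of 1416881_at was lost with quantile normalization (-0.98). Against REC all 6 were lower in CH, from -1.07 to -1.62. Without CH replicate 2, 4 of these 6 lost the call in CH against REC, at -0.84 to -0.95 on the log2 scale, and the number of member probe sets lower in CH than in REC went from 13 to 7.

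Among the 15 probe sets of the 3 anti-apoptotic genes, CH against NX gave 4 higher and 10 lower, REC against NX 3 lower, and CH against REC 4 higher and 8 lower. The shares called were 93.3%, 20.0% and 80.0%, where those of all probe sets were 22.0%, 4.36% and 27.8%. All the higher ones, and all that were lower in REC than in NX, belonged to Bcl2l1.

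Bak1 encodes the pore-forming effector BAK. Its brightest probe set, 1418991_at, had signals of 109, 111, 96.9 and 98.0 in NX, 113, 65.4, 100.3 and 131 in CH and 205, 199, 185 and 177 in REC. All 4 REC arrays were above all NX and CH arrays, and NX and CH overlapped. NX averaged 104 ± 7.26, CH 102 ± 27.6 and REC 191 ± 12.8 (mean ± SD, n = 4 mice each). The log2 change was 0.79 in REC against NX (SE 0.23, adjusted p = 0.0602) and -0.84 in CH against REC (adjusted p = 0.01004), both under 2-fold. The second was called with median centring (-1.15) and with scaling to the hybridization controls (-2.92). In CH against NX it was -0.05 (SE 0.23, adjusted p = 0.902), which became 0.13 with quantile normalization. With scaling to the hybridization controls Bak1 was called lower in CH (-1.35) and higher in REC (1.58), so its standing depends on the scale used. The second probe set, 1425716_s_at, had group means of at most 19.4 ± 17.5 and was not called.

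Bcl2l11 encodes BIM, which starts the death of unneeded lymphocytes. Signals of 1435448_at were 537, 854, 681 and 1042 in NX, 184, 132, 216 and 296 in CH and 566, 503, 424 and 373 in REC. All CH arrays lay below all others. The fall was 3.58-fold in CH against NX (log2 change -1.84, SE 0.28, adjusted p = 2.93e-04). The probe set 1456005_a_at had signals of 429, 469, 528 and 661 in NX, 146, 91.6, 153 and 136 in CH and 412, 433, 449 and 583 in REC, and fell 3.65-fold (log2 change -1.87, SE 0.24, adjusted p = 6.85e-05). In REC against NX these 2 probe sets changed by -0.69 (adjusted p = 0.205) and -0.14 (adjusted p = 0.833). In CH against REC they were lower, by -1.15 (adjusted p = 0.00580) and -1.73 (adjusted p = 6.90e-05), and the first of these calls was lost with quantile normalization (-0.79) and without CH replicate 2. The other 3 probe sets were dim, with group means of at most 33.4 ± 21.3, and were not called in any comparison by the limma fit described above. The probe set 1456006_at was called lower in CH against both groups with median centring, with scaling to the hybridization controls, with a pseudocount of 1 and without CH replicate 4, at -1.01 to -1.66 against NX, and against REC also with quantile normalization and without REC replicate 2 (-1.10).

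Bid encodes the BH3-only protein that caspase-8 cleaves, linking death receptors to mitochondria. Signals of 1417045_at were 331, 432, 384 and 606 in NX, 98.3, 154, 184 and 183 in CH and 897, 605, 699.7 and 626 in REC. All CH arrays lay below all others, and 3 of the 4 REC arrays lay above all NX arrays. The fall was 2.66-fold (log2 change -1.41, SE 0.27, adjusted p = 0.00119), and 4.29-fold against REC (adjusted p = 3.25e-05). REC against NX gave 0.69 (SE 0.27, adjusted p = 0.178), which was 1.49 and called with scaling to the hybridization controls. The other 2 probe sets of Bid were not called, at -0.44 and -0.40 in CH against NX, and so the call for Bid rests on 1 of its 3 probe sets. Scaling to the hybridization controls called both lower in CH against NX, at -1.52 and -1.09.

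Of the 8 probe sets of both BH3-only genes, 3 (37.5%) were lower in CH than in NX and 3 (37.5%) lower in CH than in REC. Of all probe sets 22.0% and 27.8% were called in these comparisons, 13.9% and 15.2% lower. In REC against NX the limma test called 0 of the 8, with 1 higher and 1 lower at an unadjusted p under 0.05 and 0 by the unmoderated analysis of variance. By the brightest probe set, anti-apoptotic Bcl2 and Mcl1 and the pro-apoptotic Bcl2l11 and Bid were each called lower in CH than in NX.

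**Figure D3:**
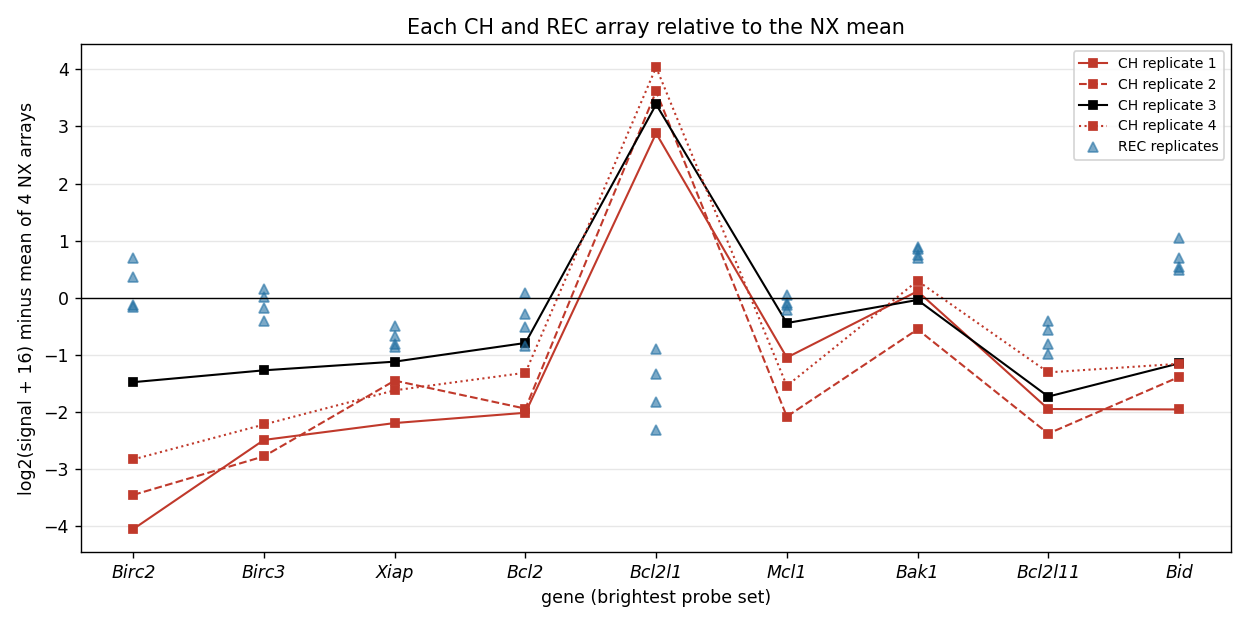
Log2 difference of each CH array (lines, with CH replicate 3 in black) and each REC array from the NX mean, for the brightest probe set of the 9 genes. In CH replicate 3 Birc2, Birc3, Xiap, Bcl2 and Mcl1 lie closest to NX, while Bcl2l1 lies among the other CH arrays.

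The CH mice differed among themselves. Over the 18 probe sets that were lower in CH than in NX, CH replicate 3 gave the highest of the 4 CH signals in 16, and CH replicate 2 the lowest in 12. The exceptions were Bcl2l11 1435448_at, highest in CH replicate 4, and Xiap 1456088_at, highest in CH replicate 1. Bcl2l1 did not share this order: CH replicate 1 had its lowest CH signal and CH replicate 4 its highest in 1420888_at. Without CH replicate 3, the brightest probe sets of the same 8 genes were called in CH against NX. The log2 change was then -3.45 for Birc2, -2.50 for Birc3, -1.76 for Xiap, -1.76 for Bcl2, -1.56 for Mcl1, -1.88 for Bcl2l11, -1.50 for Bid, 3.51 for Bcl2l1 and -0.05 for Bak1.

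Marker genes of blood cell types were followed in the same comparisons, where 22.0% (CH against NX) and 4.36% (REC against NX) of all probe sets were called. Markers are the brightest probe sets of their genes and all probe sets include dim ones, so these shares are unlike. All 8 measured erythroid markers were higher in CH than in NX, with a median log2 change of 2.73, and 5 were lower in REC. Alas2, the first enzyme of heme synthesis in red cells, had mean signals of 17848 ± 4837 (NX), 59068 ± 11736 (CH) and 6799 ± 3569.5 (REC) (mean ± SD, n = 4 each). The summed erythroid signal ranged from 33792 to 51571 in NX, from 149587 to 239175 in CH and from 6872 to 23072 in REC, the same order of groups as Bcl2l1, and none of the 8 markers was below 16 throughout a group. The sum is on the linear scale, so the bright Alas2, Fech and Slc4a1 weigh most in it. Gata1 differed in order, with means of 439 in NX and 585 in REC (log2 change 0.39, not called). Of 9 B cell markers 8 were lower in CH (median -2.21), and their summed signal was 19453 to 24364 in NX, 2420.0 to 13075 in CH and 23148 to 27893 in REC, with CH replicate 3 the highest in CH and Pax5 below 16 on all CH arrays. Of 10 T cell markers 8 were lower in CH (median -1.47), with sums of 5275 to 7337 in NX, 1472 to 4848 in CH and 9777 to 10385 in REC, again with CH replicate 3 the highest in CH. The summed monocyte signal was 11754 in CH replicate 3, of which Lyz2 alone gave 9814, where the other CH arrays had 3536 to 4619. Of the 7 monocyte markers 2 were lower in CH. Of the 7 NK cell markers CH had 1 higher and 3 lower, and REC had 4 higher, with sums of 2995 to 5192 in NX, 1408 to 2717 in CH and 8519 to 14165 in REC. Of the 8 neutrophil markers limma called 0 in CH or REC against NX (0 also at an unadjusted p under 0.05 and by the unmoderated analysis of variance), with sums of 18480.2 to 41760.4 in NX, 15059 to 52620.1 in CH and 18762 to 25983 in REC. The 5 platelet markers likewise gave 0 against NX on all 3 counts, with sums of 21800 to 40077 in NX, 26045 to 44489 in CH and 20171 to 31156 in REC. Of the 5 hepatocyte markers 1 was higher in CH, their sum was at most 388 on any array, Fgb was below 16 on all CH and REC arrays and Ahsg on all REC arrays. Of the 8 housekeeping genes 2 were higher and 2 lower in CH, and limma called 0 in REC (1 higher and 2 lower at an unadjusted p under 0.05, 0 by the unmoderated analysis of variance). The part of any cell type in the changes of the members was not tested.

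Correlations over the 12 arrays describe the same groups, since all points share the 3 conditions and the cell mixture, and no p is attached. The brightest probe set of Bcl2l1 had an r of -0.61 to -0.89 with those of the other 8 genes. Birc2 and Birc3, the neighbouring genes, had an r of 0.94. Bak1 had r between 0.04 and 0.66 to the other genes that were not Bcl2l1. Among 7436 genes with a mean signal of at least 100, those most like each member were found. Bcl2l1 was closest to Fbxo9 (r = 0.999) and Rnf14 (0.997). Birc2 was closest to Ifrd1 (0.995) and Ywhae (0.991), and Birc3 to Pom121 (0.994) and Sppl2a (0.992). Mcl1 was closest to Copb1 (0.988) and Aebp2 (0.986), Bcl2 to Ddhd2 (0.990) and Ralgapb (0.979), and Xiap to Tug1 (0.978) and Vps54 (0.976). Bid was closest to Rtl8c (0.993) and Tpi1 (0.991), Bcl2l11 to Cds2 (0.960) and Tmem170b (0.955), and Bak1 to Aph1a (0.938) and Amz2 (0.922), the lowest of the 9 best matches.

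A wider list of 50 apoptosis genes, of which 41 were measured with 1 probe set each, was set beside the members. In CH against NX 2 of the 41 were higher and 11 lower (31.7%, where 22.0% of all probe sets were called), with a median log2 change of -0.82. These shares are unlike, since the 41 are the brightest probe sets of their genes and all probe sets include dim ones. With probe sets averaged per gene 7 of the 41 were called. In REC against NX 1 was higher and limma called 0 lower (2.44%, where 4.36% of all probe sets were called, median 0.23), with 7 higher and 4 lower at an unadjusted p under 0.05 and 1 and 0 by the unmoderated analysis of variance. In CH against REC 3 were higher (Bmf, Bok and Birc5) and 20 lower (56.1%, where 27.8% of all probe sets were called, 12.6% higher and 15.2% lower, median -0.70). Among the scalings, filters and left-out arrays, Bmf lost this call with median centring. It also lost it without CH replicate 1, CH replicate 2 or REC replicate 4. With scaling to the hybridization controls all 3 lost it. Bok was absent from the calls when dim probe sets were left out, where a probe set removed by the filter counts as not called. The count in CH against NX was 20 without CH replicate 3, and that in REC was 0 without NX replicate 4, REC replicate 2 or REC replicate 3 and 2 without CH replicate 2.

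**Figure D4:**
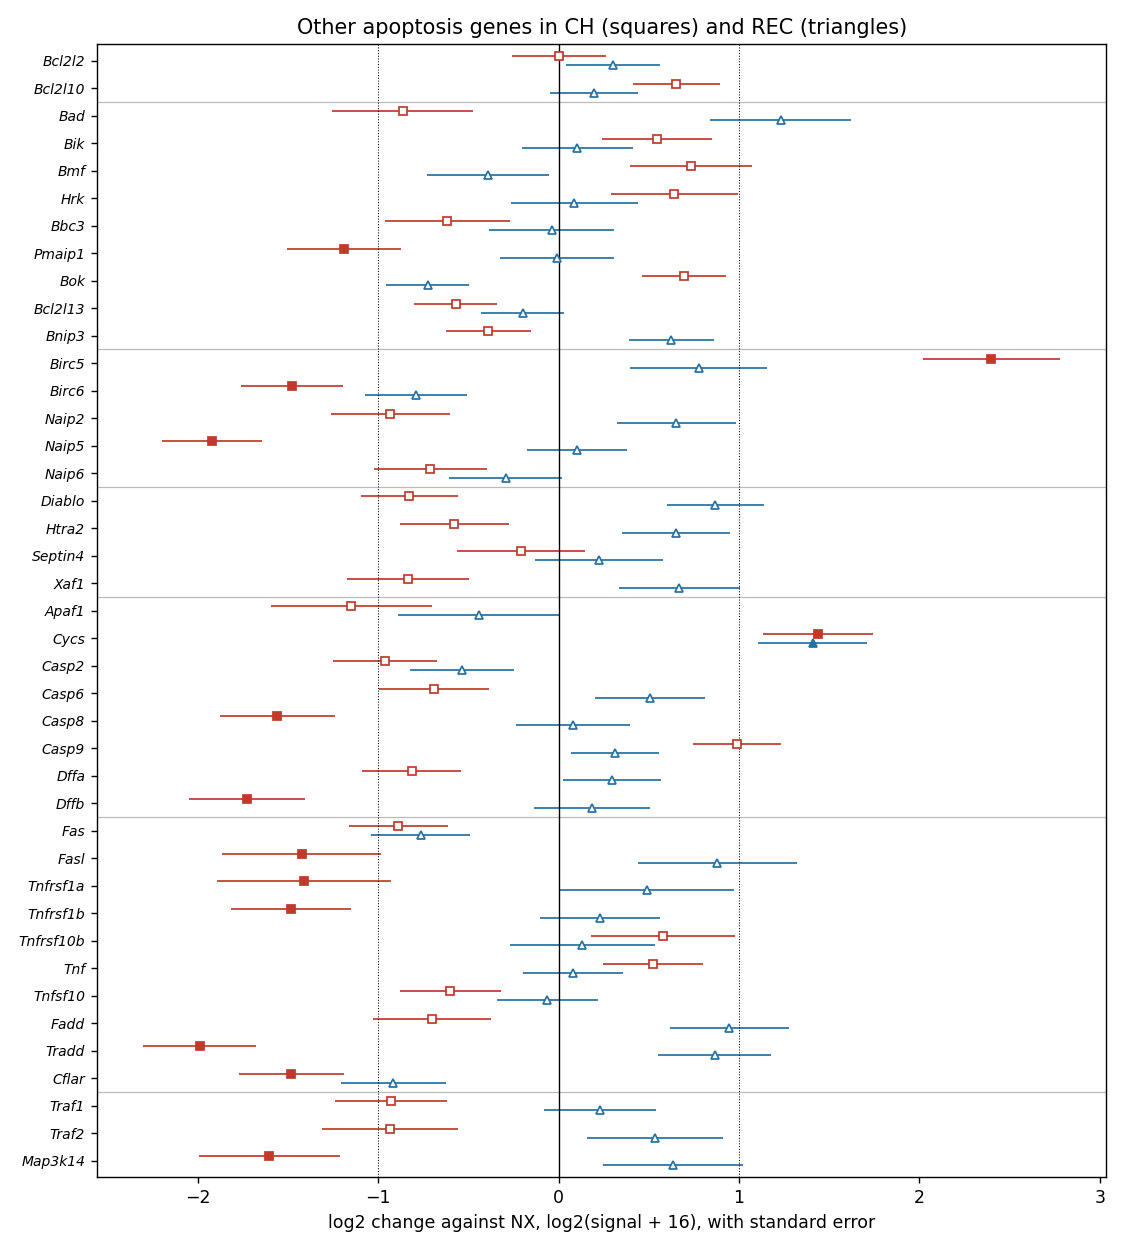
Log2 change with its SE of the 41 other apoptosis genes in CH and in REC against NX, ordered by role, with filled symbols for called genes and dotted lines at a 2-fold change. Birc5 and Cycs lie above the upper line in CH, while most of the called genes in CH, 11 of 13, lie below the lower line.

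Each role of the wider list holds few genes, and its counts stand beside shares of all probe sets called. These were 22.0% in CH against NX, 4.36% in REC against NX and 27.8% in CH against REC. Of the 5 other proteins with the BIR domain of the inhibitor family, Birc5 (survivin, which works in cell division) was 5.27-fold higher in CH, with means of 60.1 ± 6.72 (NX), 400.0 ± 130.0 (CH) and 134 ± 87.8 (REC) (mean ± SD, n = 4 each, adjusted p = 3.64e-04). Birc6, a giant ubiquitin ligase, changed by -1.48 (adjusted p = 0.00130), and Naip5, a sensor of bacterial flagellin, by -1.92 (adjusted p = 1.88e-04). Of the 4 antagonists of these inhibitors limma called 0 in CH or REC against NX (2 lower in CH and 2 higher in REC at an unadjusted p under 0.05, 0 by the unmoderated analysis of variance), but 3 were lower in CH than in REC. Diablo, which encodes the SMAC protein, had means of 132 ± 28.8 in NX, 68.5 ± 22.4 in CH and 257 ± 70.0 in REC and a log2 change of -1.70 in CH against REC (adjusted p = 2.24e-04).

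In the group of the apoptosome and caspases 1 of 8 genes was higher and 2 lower in CH (37.5%, where 22.0% of all probe sets were called). Cycs, cytochrome c, was the higher one (1.44, adjusted p = 0.00261) and was higher in REC too (1.41, adjusted p = 0.0164), with means of 487 ± 49.3 in NX, 1441 ± 546 in CH and 1333 ± 265 in REC. Cycs lost its call in REC with a pseudocount of 1, at an adjusted p under 0.01, with probe sets averaged per gene, and without NX replicate 4, REC replicate 2 or REC replicate 3. In CH against NX neither Birc5 nor Cycs was called with scaling to the hybridization controls. With probe sets averaged per gene, only 1 gene of the wider list was called higher in CH against NX. At least 1 of Birc5 and Cycs was thus not called higher there. Casp8, the caspase that cleaves BID, changed by -1.56 (adjusted p = 0.00204) and Dffb, a nuclease that cuts DNA in dying cells, by -1.73 (adjusted p = 0.00109). Among 10 death receptors, ligands and adaptors 5 were lower in CH, and the largest change was that of the adaptor Tradd, with means of 557 ± 112 in NX, 139.6 ± 84.0 in CH and 1023 ± 171 in REC (-1.99, adjusted p = 3.38e-04). Tnfrsf1b, tumour necrosis factor receptor 2, changed by -1.48 (adjusted p = 0.00388) and Cflar, an inhibitor of caspase-8, by -1.48 (adjusted p = 0.00157). Of 3 partners of the cellular inhibitors, Map3k14, the kinase NIK that they mark for degradation, was lower (-1.60, adjusted p = 0.00652). Of the 9 other BH3-only and pro-apoptotic BCL2 genes 1 was lower in CH, Pmaip1, which encodes NOXA (-1.19, adjusted p = 0.0108), and Bad was lower in CH than in REC (-2.10, adjusted p = 7.90e-04). Of 2 other anti-apoptotic genes limma called 0 in CH, 1 being higher at an unadjusted p under 0.05 and 0 by the unmoderated analysis of variance.

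The scale of the arrays touches all these values. The trimmed mean of every array was 150.0, but the 18 probe sets of the hybridization controls had mean log2 signals of 12.27 to 13.06 in NX, 14.04 to 14.64 in CH and 11.62 to 12.17 in REC, without overlap. Scaling to these controls moved the median of all probe sets to -0.71 in CH against NX, 0.40 in REC against NX and -1.13 in CH against REC. On that scale Bcl2l1 was still called higher in CH against NX (1.87, or 2.58 above the median of all probe sets), and the log2 changes of Birc3 (0.70), Xiap (0.08), Bcl2 (0.40), Mcl1 (0.71) and Bcl2l11 (0.10) in REC against NX turned positive. Median centring also turned those of Birc3 (0.06) and Mcl1 (0.06) positive, and quantile normalization that of Mcl1 (0.16). What sets the controls apart between groups was not tested.

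**Figure D5:**
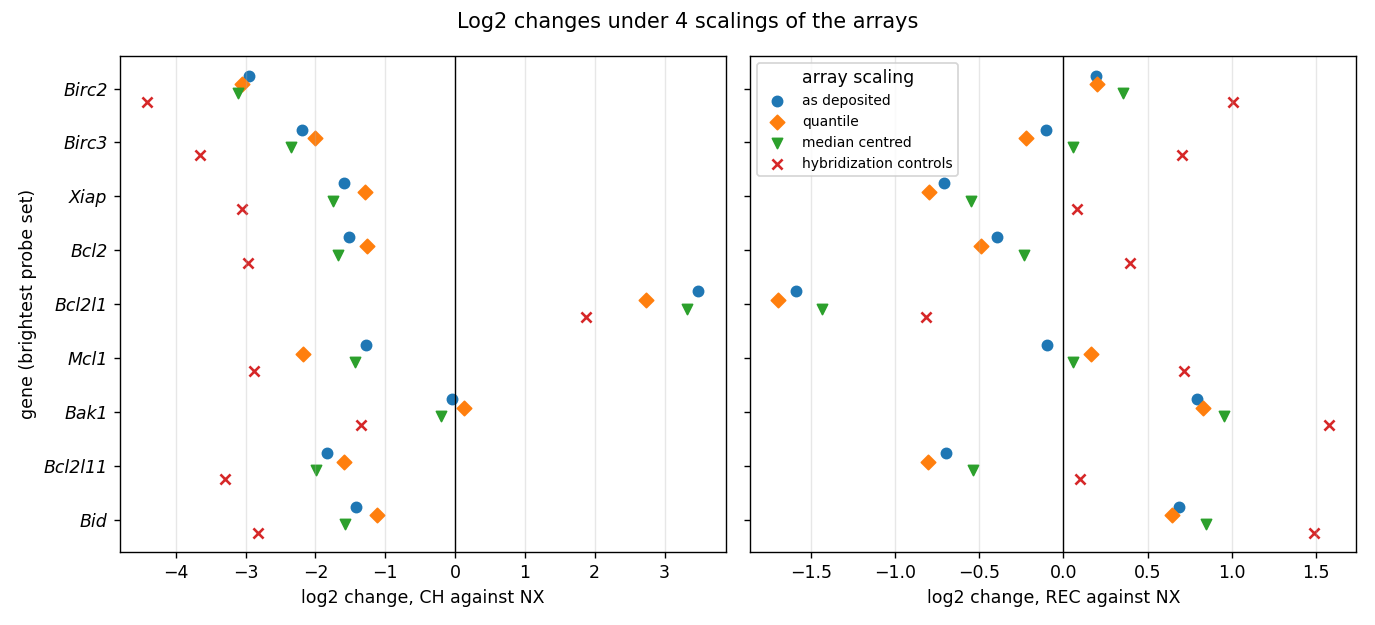
Log2 change of the brightest probe set of the 9 genes in CH and in REC against NX under the deposited scale and under quantile normalization, median centring and scaling to the hybridization controls. Bcl2l1 stays above 0 in CH under all 4, from 1.87 to 3.48, and scaling to the controls shifts all 9 genes down in CH and up in REC.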

How the data were processed

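Whole blood RNA of 12 mice was hybridised to Affymetrix Mouse 430 2.0 arrays. The deposited table holds 1 linear intensity per probe set and array, with a mean of 150.0 on each array after trimming 2% at each end. The authors scanned with an Agilent scanner and stored raw intensities in GCOS. Their methods name GC-RMA in Partek, which yields log2 values, whereas the table is linear. The sources used here do not name the program that made it. No detection call, batch or scan date was at hand, so precision rests on signal level and on 4 arrays per group.

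Symbols came from the platform annotation, matched by gene number for 34754 probe sets. A mean per group was fitted by limma (version 3.58.1, R 4.3.3, 9 residual degrees of freedom) to log2(signal + 16) of the 12 arrays, after tests on simulated data. Named genes were all members by the brightest probe set, up to 3 called genes with the largest change per role of the wider list, and the 2 most correlated genes per member. Members and lists were chosen with earlier results of these data known. Alternatives were other scalings, pseudocounts, filters, priors, weights and thresholds, and leaving out each array. Sequences are from RefSeq. Figures used Python 3.11.15 and matplotlib 3.10.9.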

Additional observations from a re-analysis of the deposited data

Results flagged for a closer look

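Within groups of 4 arrays, a value was marked where its gap to the nearest other array, divided by the range of the group, passed Dixon's critical value for 4 values. Of 105 groups (35 member probe sets in 3 groups) 7 were marked, where chance marks about 1 in 20. No explanation of them was tested.

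In CH replicate 3, Bcl2 1437122_at was high, at 320 against 107 to 117 on the other CH arrays (ratio 0.922), and Bcl2 1443837_x_at was high, at 136 against 41.8 to 49.9 (0.865). On the same array Xiap 1450231_a_at was low, at 2.44 against 36.1 to 42.6 (0.900). Birc3 1425223_at was low in NX replicate 2, at 404 against 459 to 464 (0.917). The dim Bcl2l1 probe set 1426050_at was high in NX replicate 3, at 14.3 against 2.04 to 2.90 (0.909), and in REC replicate 1, at 4.42 against 1.46 to 1.68 (0.920). Mcl1 1416880_at was low in REC replicate 4, at 4041 against 4574 to 4675 (0.850).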

How the results depend on the processing

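Scaling to the hybridization controls moved most. Member probe sets then numbered 3 higher in CH against NX, 2 higher in REC against NX, and 30 called in CH against REC, 3 higher and 27 lower. The wider list had 31 called in CH against NX, 0 higher and 31 lower (6 higher and 26 lower at an unadjusted limma p under 0.05 on the deposited scale), 18 in REC against NX, all 18 higher, and 35 in CH against REC, 0 higher and 35 lower. The median of all probe sets then moved to -0.71, 0.40 and -1.13 in these comparisons. The share of all probe sets called on that scale was not counted, so these counts are not read as particular to apoptosis genes. Xiap 1426636_a_at reversed to -1.38 and Xiap 1450232_at to -1.24 in CH against REC. The wider list in CH against NX had 21 called without a fold threshold, 4 higher and 17 lower, 4 higher with quantile normalization and with a pseudocount of 1, and 7 with probe sets averaged per gene, 1 higher and 6 lower. In REC against NX it had 2 called with quantile normalization, 1 of them lower, 0 with a pseudocount of 1, with the mean of probe sets or at an adjusted p under 0.01, 3 with array weights, 2 higher and 1 lower, and 2, both higher, with only the 8 arrays compared. The causes of these shifts were not tested.

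Leaving out 1 array at a time gave 20 to 24 member probe sets called in CH against NX, 4 to 5 higher and 15 to 19 lower, 3 to 4 in REC against NX, 0 higher and 3 to 4 lower, and 12 to 22 in CH against REC, 5 to 7 higher and 7 to 15 lower, the lowest without CH replicate 2. Across the 3 groups 20 to 24 were called. The wider list had 11 to 20 in CH against NX, 2 to 4 higher and 9 to 16 lower, the highest without CH replicate 3, 0 to 2 in REC against NX, 0 to 2 higher and 0 lower, and 19 to 24 in CH against REC, 2 to 3 higher and 17 to 21 lower.

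Whether replicate numbers pair the mice could not be decided. Of 12 same-number pairs, 3 had an r over 0.1, within a range of -0.20 to 0.44, against -0.44 to 0.35 for different numbers. All 3 were pairs of NX with CH, where the remaining same-number pair had -0.20. The ranges overlap, and so few arrays per group cannot exclude pairing. With the replicate block 22 member probe sets were called in CH against NX, 5 higher and 17 lower, and only Bcl2 1437122_at lost its call (adjusted p = 0.0561). Of 2283 single values under the alternatives, 2194 stayed on the same side of the threshold in the same direction or uncalled, 47 lost and 40 gained a call and 2 reversed, and 68 uncalled values changed sign. Leaving out dim probe sets kept 26 of the 35. The other 9 were below the median of all probe sets, where small changes are not resolved.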
